A study of Arabidopsis thaliana with 6 samples.

Results

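The genes described here are 8 transcription factors of the DOF family that are linked to vascular tissue, PEAR1, PEAR2, DOF6, TMO6, HCA2, OBP2, DOF2.1 and DOF2.2. They were chosen by their gene identifiers among the 37051 genes counted, and all 8 were found and passed the filter on low counts in every comparison. Their transcripts were measured in 3 tissues of the Arabidopsis inflorescence stem. Laser capture microdissection (LCM), by which cells are cut out of tissue sections under the microscope, was used to collect the phloem cap, the pith and the part of the vascular bundle that remained once the cap was taken. All plants were wild type of the accession Columbia (Col-0), without a transgene or treatment, and were raised in short days before long days induced flowering. The second internode was sectioned, and 2 libraries were made from each tissue, S30 and S31 from the vascular bundle, S32 and S33 from the phloem cap and S34 and S35 from the pith. The remaining vascular bundle is a mixture that holds xylem, cambium and phloem outside the cap. The labels do not say whether the libraries of a tissue came from separate plants, so that p-values measure the spread between these libraries.

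DOF proteins are plant-specific transcription factors that bind DNA through a single zinc finger, held by 4 cysteines, at sites with the core AAAG. In the root, PEAR1 and PEAR2 are made in early protophloem sieve elements, move into neighbouring cells and promote the divisions that widen the vascular cylinder, together with DOF6, TMO6, HCA2 and OBP2. Cytokinin promotes their activity there, and HD-ZIP III transcription factors counteract it. TMO6 and DOF2.1 connect the group to auxin, because TMO6 is a target of the auxin response factor MONOPTEROS (MP) and DOF2.1 acts downstream of the TMO5 and LHW pair.

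The zinc finger is what the 8 genes share, and its coding DNA is shown here for 7 of them because this conserved stretch is where reads of related genes could be mistaken for each other. Each sequence runs from the first to the fourth cysteine codon of the finger, which lies within 1 exon in these 7 genes, 5′ to 3′ on the coding strand, with the 4 cysteine codons in capitals. The sequences were read from the RefSeq genome TAIR10.1.
PEAR1 (chr2:15769775-15769861, forward strand): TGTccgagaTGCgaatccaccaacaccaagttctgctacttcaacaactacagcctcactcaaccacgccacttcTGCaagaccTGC
PEAR2 (chr5:540374-540460, reverse strand): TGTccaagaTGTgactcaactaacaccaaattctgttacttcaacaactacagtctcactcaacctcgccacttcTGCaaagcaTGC
DOF6 (chr3:16740058-16740144, reverse strand): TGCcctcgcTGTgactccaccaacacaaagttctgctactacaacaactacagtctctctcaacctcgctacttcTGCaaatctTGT
TMO6 (chr5:24241346-24241432, forward strand): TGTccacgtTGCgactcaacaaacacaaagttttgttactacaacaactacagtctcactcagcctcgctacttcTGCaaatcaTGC
OBP2 (chr1:2355382-2355468, reverse strand): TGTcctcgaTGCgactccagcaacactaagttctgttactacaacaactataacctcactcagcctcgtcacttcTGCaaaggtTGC
DOF2.1 (chr2:12200016-12200102, reverse strand): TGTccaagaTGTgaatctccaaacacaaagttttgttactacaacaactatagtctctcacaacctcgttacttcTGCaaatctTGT
DOF2.2 (chr2:12364343-12364429, forward strand): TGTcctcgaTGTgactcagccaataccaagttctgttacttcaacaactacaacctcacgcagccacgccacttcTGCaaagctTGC
Over these 87 bases the 21 pairs of the 7 genes were 75.9% to 87.4% identical, with a median of 81.6%. PEAR2 and TMO6 were the most alike pair (87.4%), PEAR1 and PEAR2 were 86.2% identical, and DOF2.1 and DOF2.2 were the least alike (75.9%). The longest run of identical bases between any 2 of these fingers was 31 bases (TMO6 and DOF2.1), which is shorter than the 50-base reads. None of the 50-base windows in the exons of the 8 genes recurred exactly elsewhere in the genome, so that reads matching these exons without mismatch could be assigned to 1 member. Introns and near matches with mismatches were not searched. None of the 8 genes overlapped another annotated gene, which matters because strand was ignored.

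The 6 libraries held 19324189 to 22571632 counted reads, and a level of 3 counts, up to which a gene with 0 counts may lie, was 0.126 to 0.165 CPM (counts scaled to library size, with sizes adjusted by the TMM method). This limit covers counting error only, since the RNA had been amplified and reads are not independent molecules. The summed TPM (counts scaled to gene length and library size) of 4 pith markers were 410 and 408 in the pith libraries and 6.79 to 30.7 in the other 4. Those of 3 phloem cap markers were 2560 and 3190 in the cap and at most 958 elsewhere. Among these markers, the study chose MYB29 (cap), CLE46 and AGP26 (pith) by their levels in these same samples. They are therefore no separate check. The study took the pith markers ANAC074 and AT2G38380 and the cap marker CYP83A1 from earlier work. ANAC074 had 6.74 and 4.88 TPM in the pith and at most 0.536 elsewhere. AT2G38380 had 35.5 and 126 TPM there and at most 1.24 elsewhere. CYP83A1 had 2320 and 2950 TPM in the cap and at most 908 elsewhere. The remaining cap marker, MYB28, was added here and is not named as a marker in the study's text. It had 125 and 97.7 TPM in the cap and at most 27.2 elsewhere. The phloem cap libraries differed from each other more than the other pairs did. The sums of the 7 xylem markers (454 against 153 TPM) and of the 3 epidermis markers (116 against 27.9 TPM) were larger in S33 than in S32. Within the epidermis list, LTP1 went the other way (17.2 TPM in S32, 1.62 in S33). The epidermis sum was highest in the bundle libraries, at 363 and 417 TPM, and was 4.52 and 7.03 TPM in the pith.

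The vascular DOF genes had their highest levels in the phloem cap, intermediate levels in the remaining vascular bundle and low levels in the pith, although DOF2.1 overlapped between cap and bundle. Genes were called when edgeR's quasi-likelihood test gave a Benjamini-Hochberg adjusted p below 0.01 over all genes and the fold change exceeded 2. In the pith, 7 of the 8 genes were called lower than in the vascular bundle (10.5% of the 18063 genes tested were), all but PEAR1. DESeq2 also called 7 (14.3% of 19030 genes), all but OBP2. The median log2 fold change was -5.30 for the 8 genes and -0.04 over all genes. When the cap was set against the pith, all 8 genes were called higher in the cap (8.33% of 18201 genes were), with a median of 6.55 against 0.07. Between phloem cap and vascular bundle, 0 of the 8 genes were called by edgeR, which called 0.0% of 18528 genes, and the median was 1.57 against 0.04. In that comparison the unadjusted p was below 0.05 for 7 of the 8 genes, all of them higher in the cap, as for 9.93% of all genes. The DESeq2 Wald test at the same thresholds called 3 members higher in the cap, PEAR1, PEAR2 and OBP2 (2.97% of 19461 genes). The libraries of 7 genes did not overlap between cap and bundle (27.5% of genes were higher in the cap without overlap), and those of all 8 did not overlap between pith and bundle (37.5% were lower) or between cap and pith (34.9% were higher). The 3 comparisons share libraries and are not independent of each other. In tissue samples of this kind, fewer cells of a type and less RNA per cell cannot be told apart.

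**Figure D1:**
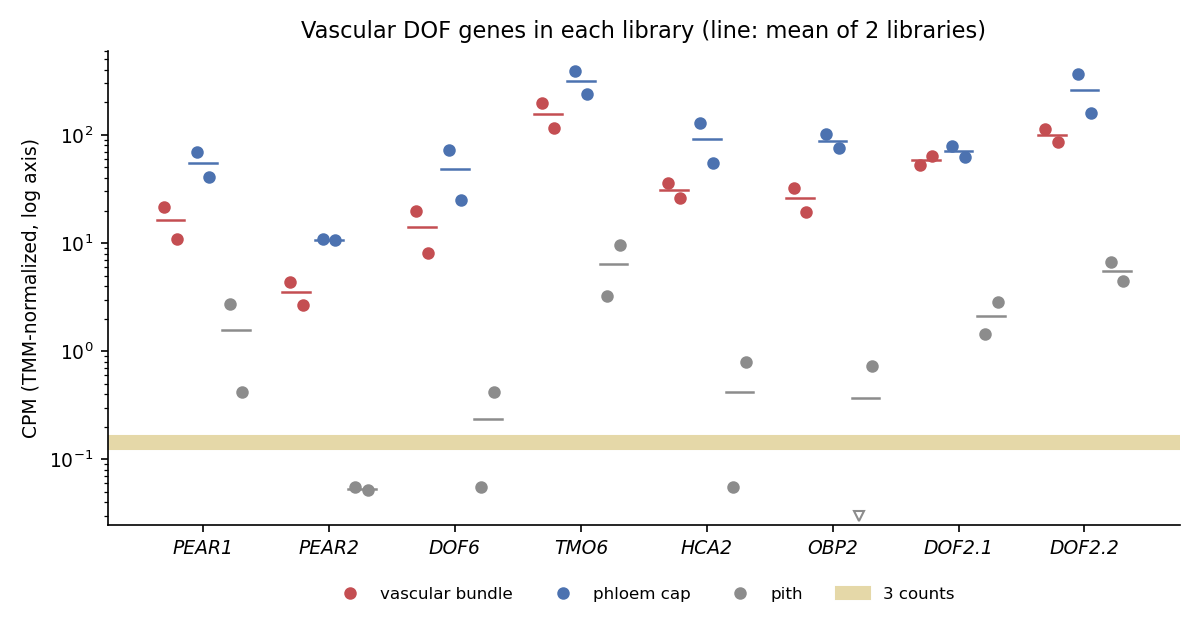
CPM of the 8 genes (log axis) in each library of the vascular bundle, phloem cap and pith, with lines at the mean of the 2 libraries and a band at the level of 3 counts. The open triangle marks the 0 counts of OBP2 in S34. For each gene the pith points lie below those of the other tissues, and cap points lie above bundle points except for DOF2.1.

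PEAR1 (AT2G37590; chr2:15769086-15770805, forward strand), which promotes periclinal divisions around the root protophloem, had 21.5 and 10.9 CPM in the bundle libraries. Its level was 69.6 and 40.6 CPM in the cap and 2.75 and 0.42 CPM in the pith. The groups did not overlap, but the pith libraries were 6.55-fold apart, with 50 counts in S34 and 8 in S35. The log2 fold change between pith and bundle was -3.35 (SE 0.80), for which edgeR's adjusted p of 0.0194 missed the threshold and the DESeq2 adjusted p of 9.34e-05 passed it. Without S34 the same difference was -5.24, and without S35 it was -2.55. In the cap PEAR1 was 34.7-fold above its pith level (5.12 on the log2 scale, SE 0.83, edgeR adjusted p 0.00464). Its difference between cap and bundle was 1.75 (SE 0.43, edgeR adjusted p 0.0867), and the DESeq2 adjusted p was 0.00379.

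PEAR2 (AT5G02460; chr5:539249-541316, reverse strand), a homologue that shares its function with PEAR1, was the least abundant of the 8 genes. It had 4.36 and 2.69 CPM in the bundle, 10.9 and 10.6 CPM in the cap, and a single count in each pith library (0.0551 and 0.0526 CPM). The cap replicates were thus nearly equal and the pith level lay under the level of 3 counts. With 155 counts in the bundle and 2 in the pith, the depth-corrected ratio was 64.7 (95% counting interval 17.6 to 539), and the log2 fold change of -5.88 (SE 0.85) was called by edgeR (adjusted p 0.00299). The ratio of phloem cap to pith was 200 (55.1 to 1660), also called (edgeR adjusted p 0.000475). For cap against bundle PEAR2 gave a log2 fold change of 1.6 (SE 0.37), for which edgeR's adjusted p was 0.0768 and that of DESeq2 0.00917.

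Per unit of gene length, PEAR1 exceeded PEAR2 in every library. The ratio of their TPM values was 5.93 and 4.87 in the bundle and 7.67 and 4.59 in the cap, and these ranges overlapped. In the pith it was 60.1 and 9.62, on 1 count of PEAR2 in each library.

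DOF6 (AT3G45610; chr3:16739247-16740546, reverse strand), which acts with the PEAR genes in the root and also restrains seed germination, had 20 and 8.10 CPM in the bundle. In the cap it had 71.9 and 25.1 CPM, and in the pith 0.0551 and 0.42 CPM. Its cap replicates were 2.87-fold apart, the widest spread of any member in the cap, and every cap library still lay above both bundle libraries. DOF6 fell by 5.83 on the log2 scale from bundle to pith (SE 0.84, edgeR adjusted p 0.00296), with 9 counts over both pith libraries. It was 7.62 higher in the cap than in the pith on the same scale (SE 0.91, edgeR adjusted p 0.00115). The cap to bundle difference of 1.77 (SE 0.65) was not called, with edgeR's adjusted p at 0.202 and that of DESeq2 at 0.0353.

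TMO6 (AT5G60200; chr5:24240810-24242523, forward strand), an auxin-responsive target of MP, was the most abundant of the 8 genes. It had 198 and 115 CPM in the bundle, 392 and 239 CPM in the cap and 3.25 and 9.57 CPM in the pith. The cap and bundle groups were adjacent without overlap, and the pith lay far below both. TMO6 fell by 4.61 on the log2 scale from bundle to pith (SE 0.56, edgeR adjusted p 0.00165) and was 5.62 higher in the cap than in the pith (SE 0.63, edgeR adjusted p 0.000846). Its difference between cap and bundle was the second smallest, 1.0 on the log2 scale (SE 0.40), and edgeR and DESeq2 gave adjusted p-values of 0.226 and 0.113. By TPM, TMO6 exceeded 96.1% of the genes with a count in the bundle, 98.4% in the cap and 50.6% in the pith.

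HCA2 (AT5G62940; chr5:25256852-25258704, reverse strand), whose gain of function raises cambial activity in the stem, had 35.8 and 26.1 CPM in the bundle, 128 and 54.7 CPM in the cap, and 0.0551 and 0.788 CPM in the pith. The pith values rest on 1 count in S34 and 15 counts in S35. Between bundle and pith HCA2 had a log2 fold change of -6.16 (SE 0.75, edgeR adjusted p 0.00163). Its difference between cap and pith was 7.72 (SE 0.94, edgeR adjusted p 0.00153), and that between cap and bundle was 1.54 (SE 0.45, edgeR adjusted p 0.119, DESeq2 adjusted p 0.0146). Of the 4 cambium genes listed, WOX4, which maintains cambium cells, fell by 5.41 on the log2 scale from bundle to pith (SE 0.76, edgeR adjusted p 0.00276). ANT, a growth regulator active in the cambium, fell by 5.04 (SE 0.39, edgeR adjusted p 0.000349). The receptor kinase gene PXY had 551 CPM in the pith and 302 CPM in the bundle (means of 2 libraries, edgeR adjusted p 0.0246), and MOL1 8.64 and 10.2 CPM, and neither was called. The summed TPM of the 4 cambium genes was 263 and 225 in the bundle, 457 and 457 in the cap and 284 and 269 in the pith. All 4 were higher in the cap than in the bundle without overlap (27.5% of genes were), with a median of 1.01. There edgeR called 0 of them (0.0% of genes) and DESeq2 called 1 (2.97%).

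OBP2 (AT1G07640; chr1:2353031-2356413, reverse strand), an activator of the indole glucosinolate gene CYP83B1, had 32.6 and 19.5 CPM in the bundle. It had 101 and 76.2 CPM in the cap, and in the pith it had 0 counts in S34 and 14 counts in S35 (0.736 CPM). The cap libraries were 1.32-fold apart and above those of the bundle. OBP2 had the smallest cap to bundle p-value of the 8 genes (1.75 on the log2 scale, SE 0.34, edgeR adjusted p 0.0636, DESeq2 adjusted p 0.00024). From bundle to pith OBP2 fell by 6.10 on the log2 scale (SE 0.92, edgeR adjusted p 0.00357), and the DESeq2 adjusted p of 0.0188 missed the threshold. The fitted difference went to -12.09 when S35 was left out, since S34 had no count. Its difference between cap and pith was 7.86 (SE 0.98, edgeR adjusted p 0.0017).

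Of the 6 indole glucosinolate genes listed beside OBP2, 5 were tested between pith and bundle. In the pith 3 were called lower, as were 10.5% of all genes. The median was -4.57, or -4.24 with MYB34 at its bound. CYP79B2 and CYP79B3, which start the pathway from tryptophan, had log2 fold changes of -5.45 (SE 0.81, edgeR adjusted p 0.00328) and -4.57 (SE 0.66, edgeR adjusted p 0.00300). MYB34, an activator of both, had 0 counts in the pith against 137 in the bundle, at least 18.9-fold higher there when 3 counts per library are set for the pith. CYP83B1 itself had 120 and 74.8 CPM in the bundle, 233 and 237 CPM in the cap and 41.6 and 24.6 CPM in the pith. It was ordered over the tissues like OBP2, but its difference between pith and bundle was smaller (-1.56 on the log2 scale, SE 0.36, edgeR adjusted p 0.0165) and was not called.

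DOF2.1 (AT2G28510; chr2:12199075-12200780, reverse strand), which promotes periclinal division downstream of TMO5 and LHW, was the exception in the cap. It had 52.6 and 63.5 CPM in the bundle and 79.8 and 62.8 CPM in the cap, so that these groups overlapped. The log2 fold change between them was 0.28 (SE 0.27, edgeR adjusted p 0.617, DESeq2 adjusted p 0.738), and it ranged from 0.10 to 0.43 when single libraries were left out. The other 7 genes had values of 1.0 to 1.77 in this comparison, and the difference between DOF2.1 and these genes was not tested. In the pith DOF2.1 had 1.43 and 2.84 CPM and was called lower than in the bundle (-4.76 on the log2 scale, SE 0.40, edgeR adjusted p 0.000434) and lower than in the cap (5.05 for cap against pith, SE 0.48, edgeR adjusted p 0.000342).

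DOF2.2 (AT2G28810; chr2:12363426-12365377, forward strand) had 114 and 86.3 CPM in the bundle, 364 and 160 CPM in the cap, and 6.66 and 4.47 CPM in the pith. It was the second most abundant member in all 3 tissues by TPM. It had the best determined difference between pith and bundle of the 8 genes (log2 fold change -4.17, SE 0.33, edgeR adjusted p 0.000358), and its cap to pith difference was 5.56 (SE 0.55, edgeR adjusted p 0.000416). For cap against bundle the value was 1.37 (SE 0.44, edgeR adjusted p 0.149, DESeq2 adjusted p 0.0283). The TPM ratio of DOF2.2 to DOF2.1 was 1.90 and 1.19 in the bundle and 3.99 and 2.22 in the cap, without overlap between these groups. In the pith it was 4.07 and 1.38, which overlaps the values of both other tissues.

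**Figure D2:**
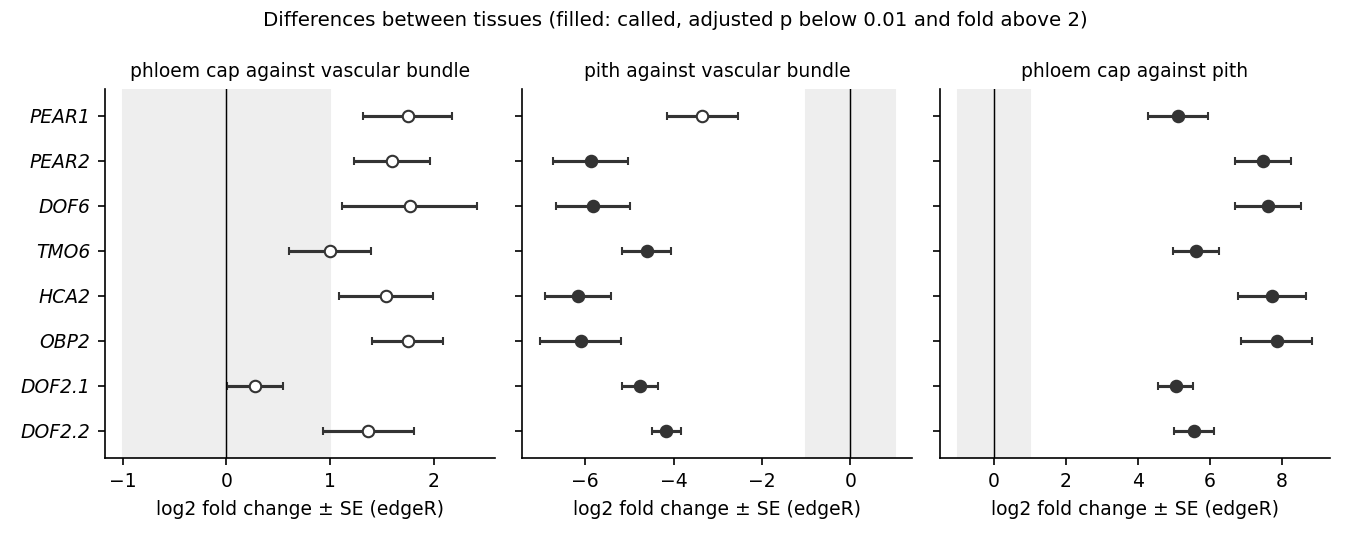
Log2 fold changes of the 8 genes with their SE in the 3 comparisons, from edgeR. Filled points were called, and the grey area marks fold changes under 2. Filled points are absent between cap and bundle, present for 7 genes between pith and bundle, where PEAR1 is open at -3.35, and present for all 8 between cap and pith.

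Single libraries decided several calls. Without S33 of the cap, 3 genes were called higher in the cap than in the bundle, HCA2 (log2 fold change 2.02), OBP2 (1.93) and DOF2.2 (1.84), on 1 remaining cap library that is assumed to vary like the bundle libraries. In that fit edgeR called 800 of all 19101 genes tested (4.19%) higher in the cap, against 0 with both cap libraries. When any other library was left out, 0 of the 8 were called there. From bundle to pith, 4 genes were called without S30 and 5 without S31, against 8 without S34 and 8 without S35. The share of all genes tested that edgeR called lower in the pith moved as well, from 5.2% without S30 and 5.76% without S31 to 16.7% without S34 and 18.6% without S35. TMO6, HCA2, DOF2.1 and DOF2.2 were called in all 4 of these fits. For cap against pith, the log2 fold changes of the 8 genes stayed positive whichever library was left out, at 4.32 to 13.85. The highest was that of OBP2 without S35, since S34 had no count.

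By TPM, the order of the genes in the bundle was TMO6 (193 ± 65.6, mean ± SD, n = 2), DOF2.2 (109 ± 17.2), DOF2.1 (73.0 ± 12.6), HCA2 (35.6 ± 6.55), DOF6 (22.8 ± 12.9), PEAR1 (19.9 ± 8.53), OBP2 (16.3 ± 5.19) and PEAR2 (3.62 ± 1.07). The libraries of the first 3 and of PEAR2 did not overlap those of their neighbours, whereas HCA2 overlapped DOF6, and DOF6, PEAR1 and OBP2 overlapped each other. In the cap TMO6 (428 ± 124) and DOF2.2 (310 ± 156) overlapped at the top. HCA2 (114 ± 58.8) came next there, and DOF2.1 (97.6 ± 11), DOF6 (85.9 ± 54.8), PEAR1 (74.4 ± 23.7) and OBP2 (61.1 ± 8.50) followed, with overlap between neighbours. PEAR2 (12.2 ± 0.486) was below all of them. In the pith TMO6 (7.19 ± 5.10) and DOF2.2 (5.44 ± 1.43) again led, and the other 6 genes had 2.40 TPM or less on average.

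TMO6, DOF2.2 and DOF2.1 made up most of the vascular DOF transcripts in every library. TMO6 alone contributed 43.8% and 36.7% of the summed TPM of the 8 genes in the bundle, 34.6% and 39.0% in the cap, and 24.2% and 51.8% in the pith. DOF2.1 contributed less in the cap (7.07% and 10.3%) than in the bundle (11.7% and 20.5%), a difference that was not tested. The make-up of S34 differed from that of S35, with PEAR1 at 20.4% against 2.27% and DOF2.2 at 43.5% against 21.3%, on 259 and 367 counts over the 8 genes.

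**Figure D3:**
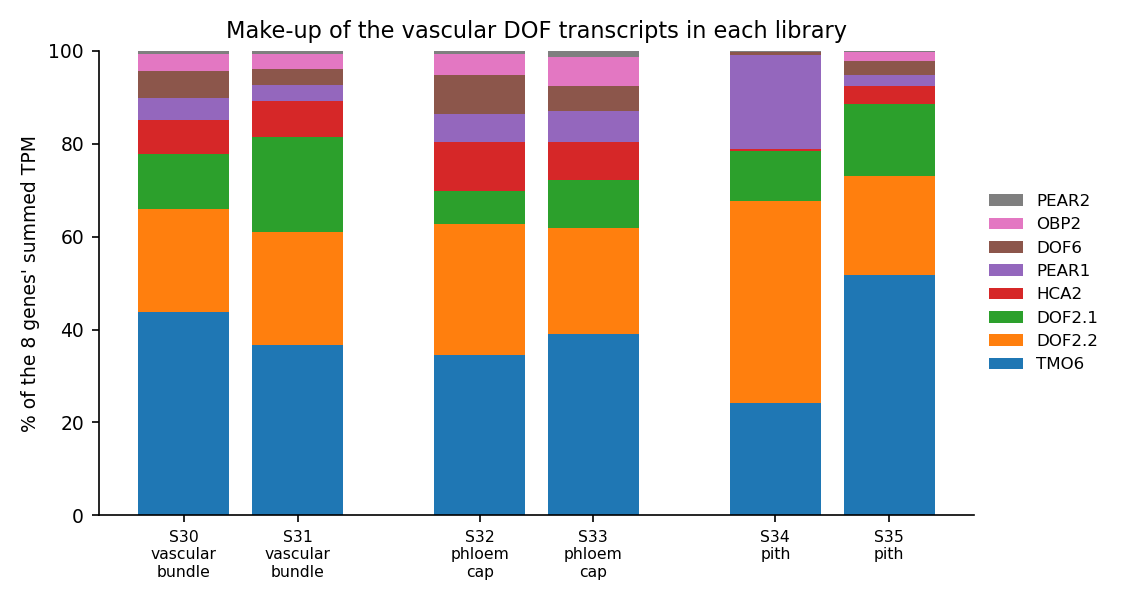
Share of each gene in the summed TPM of the 8 genes (percent) in each library. TMO6 is the largest part in 5 libraries, between 34.6% and 51.8%, while in S34 of the pith DOF2.2 is larger (43.5%) and PEAR1 reaches 20.4%.

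The 8 genes followed a common course over the 6 libraries. Pearson's correlation of log2(CPM + 1) was 0.886 to 0.994 for the 28 pairs, with a median of 0.973. The highest value belonged to HCA2 and OBP2 and to TMO6 and HCA2, and the lowest to PEAR1 and DOF2.1. These points are 6 libraries from 3 tissues, so that any gene with the same order of tissues has a high value. Of the 17149 genes ranked, 6.79% were above 0.95 with the members' mean profile, which is another measure than the pairs. All 8 members were above 0.95 too, in part because that profile is their own mean. The 5 other genes closest to that profile were AT4G18340 (0.9997), NIK2 (0.9994), AT5G22850 (0.9994), AT1G24735 (0.9993) and AT2G42730 (0.9991). NIK2, a receptor-like kinase gene, had 47.8 and 32.3 CPM in the bundle, 140 and 81.8 CPM in the cap and 0.881 and 1.52 CPM in the pith. The profiles were standardized for each gene, so that likeness does not measure the size of a difference. AT5G22850 differed less between tissues, with 128 and 111 CPM in the bundle, 169 and 148 CPM in the cap and 54.2 and 53.7 CPM in the pith.

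The DOF family as a whole was split. Of the 28 other DOF genes, 17 were tested between pith and bundle and 7 were called lower, as were 10.5% of all genes. The median of the 17 was -1.63, against -0.04 over all genes. No other DOF gene was called higher in the pith (5.44% of all genes were). The 7 genes were OBP3 (-5.66, SE 0.44, edgeR adjusted p 0.000349), CDF4 (-5.52, SE 0.77), DAG1 (-5.16, SE 0.98), DAG2 (-4.40, SE 0.58), OBP1 (-4.13, SE 0.32), DOF1.6 (-4.13, SE 0.67) and COG1 (-3.39, SE 0.50). The same 7 were called higher in the cap against the pith (8.33% of all genes were), by 4.38 (DOF1.6) to 6.79 (OBP3) on the log2 scale. OBP3 had levels of the order of HCA2, with 54.0 and 38.5 CPM in the bundle, 122 and 81.9 CPM in the cap and 0.606 and 1.21 CPM in the pith. CDF4 had 177 counts in the bundle and 3 in the pith, a depth-corrected ratio of 49.2 (95% counting interval 16.6 to 241).

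The most abundant of the other DOF genes behaved differently from each other. DOF1.6, which reached 305 TPM in the cap, had 111 and 99.2 CPM in the bundle, 135 and 117 CPM in the cap and 1.98 and 10 CPM in the pith, where it was called lower. OBP4, a regulator of cell growth, had 152 and 145 CPM in the bundle, 185 and 92.0 CPM in the cap and 282 and 300 CPM in the pith. It was thus highest in the pith, by a log2 fold change of 0.97 over the bundle (SE 0.21, edgeR adjusted p 0.0141), which was not called. DOF4.6 had 124 and 94.2 CPM in the bundle, 192 and 121 CPM in the cap and 81.6 and 40.2 CPM in the pith, and was not called in any comparison. For cap against bundle, edgeR called 0 of the 17 other DOF genes tested (0.0% of all genes). Its unadjusted p was below 0.05 for 7, all higher in the cap, as for 9.93% of all genes. DESeq2 called 2 higher (2.97% of genes), the seed germination regulators DAG1 (log2 fold change 1.54, SE 0.29) and DAG2 (1.36, SE 0.28). Another 11 DOF genes did not pass the count filter in that comparison. Summed over the 28 other genes, TPM was 1060 and 919 in the bundle, 1460 and 1290 in the cap and 529 and 489 in the pith, whereas the sum of the 8 vascular genes was 548 and 400, 1490 and 875, and 14.8 and 20.8.

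**Figure D4:**
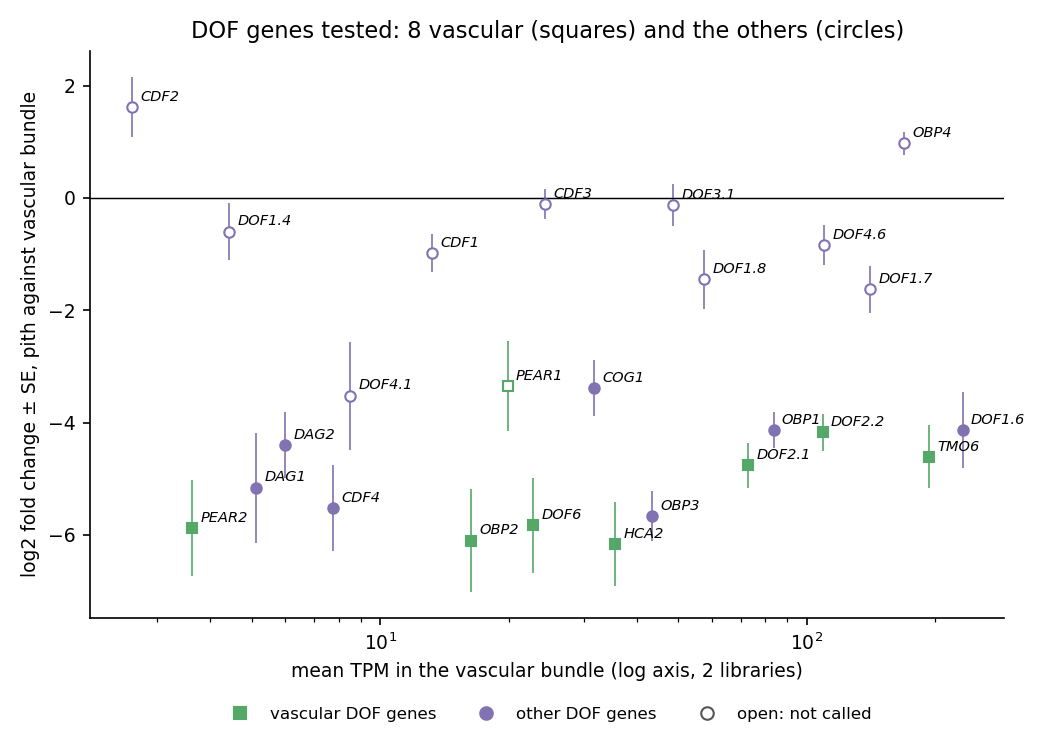
Log2 fold change between pith and vascular bundle with its SE, from edgeR, against the mean TPM in the bundle (log axis) for the DOF genes tested, 8 vascular (squares) and 17 others (circles). Filled symbols were called. The 8 squares lie between -6.16 and -3.35, while the circles run from -5.66 (OBP3) to 1.62 (CDF2).

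The genes known to act above the vascular DOF genes in the root had mixed patterns. Of the 10 listed, 8 were tested. In the pith 4 were called lower than in the bundle (10.5% of all genes were) and 0 higher (5.44%). The median was -1.44, against -0.04 over all genes. MP, the activator of TMO6, had 43.2 and 35.4 CPM in the bundle, 54.7 and 61.3 CPM in the cap and 1.6 and 2.21 CPM in the pith (pith against bundle -4.37, SE 0.34, edgeR adjusted p 0.000347). TMO5 and its relative T5L1, which pair with LHW to raise cytokinin, had log2 fold changes of -3.30 (SE 0.60) and -2.54 (SE 0.30), both called. LHW itself had 105 and 74.4 CPM in the bundle and 69.3 and 71.6 CPM in the pith and was not called (log2 fold change -0.35, SE 0.25). LOG4, an enzyme that activates cytokinin, had 68 counts in the bundle and 0 in the pith, at least 9.56-fold higher in the bundle with 3 counts per library set for the pith. The cytokinin receptor gene AHK3 had a mean of 246 CPM in the pith and 125 CPM in the bundle (edgeR adjusted p 0.0227, not called). T5L1 had 147 and 91.3 CPM in the bundle and 37.3 and 92.2 CPM in the cap, so that these groups overlapped.

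The 5 HD-ZIP III genes, which act with and against the PEAR proteins in the root, moved in both directions. Between pith and bundle 2 were called lower in the pith (10.5% of all genes were) and 2 higher (5.44%). From bundle to pith, PHB (log2 fold change -4.37, SE 0.36, edgeR adjusted p 0.000432) and ATHB8 (-4.48, SE 0.49, edgeR adjusted p 0.00108) fell, close in size to TMO6 and DOF2.2. CNA rose by 2.26 (SE 0.23, edgeR adjusted p 0.000783) and PHV by 1.63 (SE 0.23, edgeR adjusted p 0.00283). CNA had 1380 and 1580 CPM in the pith, 316 and 301 CPM in the bundle and 192 and 289 CPM in the cap, so that its order over the tissues was the reverse of that of the DOF genes. REV had 60.8 and 63.0 CPM in the pith and 99.0 and 87.3 CPM in the bundle and was not called (edgeR adjusted p 0.0828). In cap against bundle, edgeR and DESeq2 each called 0 of these 5 genes, and 0 had an unadjusted p below 0.05 in edgeR.

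In the pith, genes of phloem cells were low like the vascular DOF genes, and so were xylem and fibre markers. From bundle to pith, 5 of 6 xylem markers tested were called lower (median log2 fold change -4.85). The fibre markers NST1 and NST3 were both called lower (median -3.63), as were 10.5% of all genes. Of 19 phloem genes listed, 14 of 16 tested were called lower in the pith than in the bundle (median log2 fold change -5.41). In the cap 15 of 19 were called higher than in the pith (8.33% of all genes were), with a median of 6.61. SMXL3, a regulator of early phloem formation, fell by 6.41 (SE 0.55) on the log2 scale from bundle to pith. The sieve element genes SEOR1 and SEOR2 fell too, with -6.28 (SE 0.35) and -6.40 (SE 0.70). The companion cell sucrose transporter gene SUC2 (-4.04, SE 0.31) and the phloem lectin gene PP2-A1 (-5.57, SE 0.47) were called lower as well. In cap against bundle, 0 of 19 were called by edgeR (0.0% of all genes). DESeq2 called 4 higher (2.97% of genes), SMXL3, SMXL4, APL and CALS7. The unadjusted p of edgeR was below 0.05 for 9, all higher in the cap, as for 9.93% of all genes. The median was 1.16, against 0.04 over all genes. The median of the vascular DOF genes in that comparison was 1.57.

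The summed TPM of these 19 phloem genes was 1820 and 1190 in the bundle, 4120 and 2590 in the cap and 43.7 and 67.7 in the pith, the same order of the 6 libraries as for the 8 DOF genes. In each pith library 2 of the 19 genes had 0 counts, NAC086 and SWEET11 in S34 and NAC045 and NAC086 in S35. Within the cap, S32 was above S33 in both sums, and the xylem, epidermis and pith marker sums were lower in S32. The phloem cap marker sum was also lower in S32 (2560 against 3190 TPM). The 7 xylem markers, among them CESA4, CESA7 and CESA8 of secondary walls and the protease gene XCP2, summed to 4200 and 4400 TPM in the bundle, 153 and 454 TPM in the cap and 182 and 139 TPM in the pith. Strand was ignored in counting, and reads that touched more than 1 annotated gene were dropped. MP, LOG4, REV, PP2-A1, CESA4, CESA7, CESA8 and AGP26 overlap a neighbouring gene by 1 to 481 bases. The phloem gene NAC045 overlaps a neighbour by 1096 bases. Their counts may therefore lack reads from these stretches. The part of tissue make-up in the differences of the DOF genes was not tested. Within the pith, S35 was above S34 for the phloem sum and for TMO6, DOF6, HCA2, OBP2 and DOF2.1 but not for PEAR1, PEAR2 or DOF2.2.

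**Figure D5:**
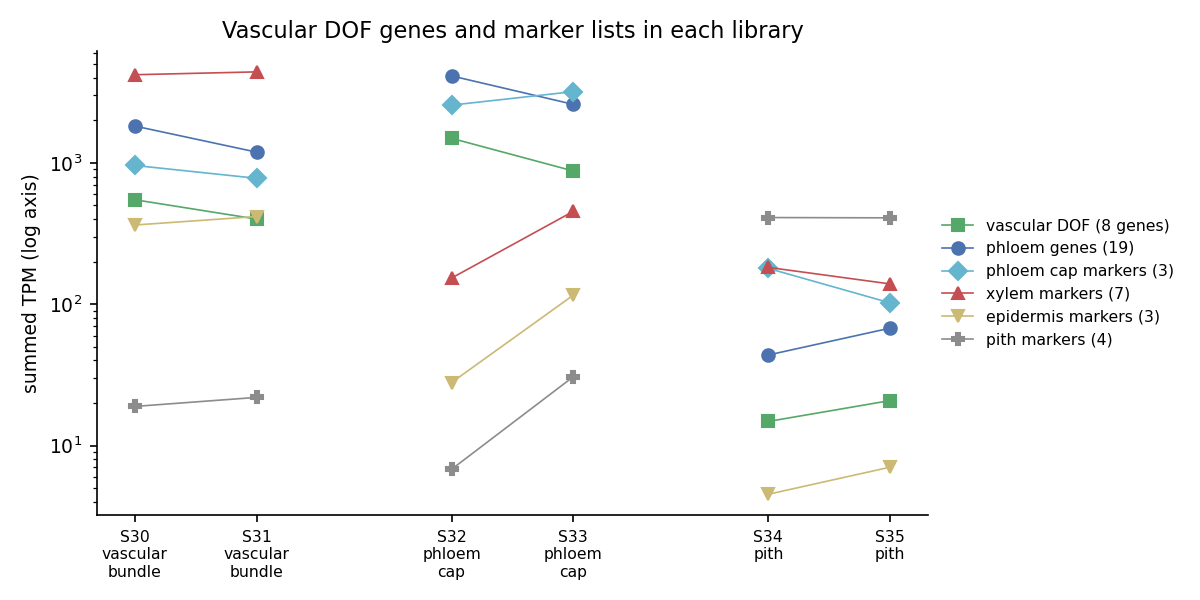
Summed TPM (log axis) of the 8 vascular DOF genes and of marker lists in each library, with lines joining the 2 libraries of a tissue. The DOF sum (14.8 to 1490) follows the phloem sum (43.7 to 4120) over the 6 libraries, while the xylem markers are highest in the bundle (4200 and 4400).

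The regions just upstream of the 7 genes whose fingers are shown were searched for the letters AAAG, the core of DOF binding sites, on both strands (CTTT on the strand printed). Of the 250 bases before each gene start, DOF2.1 held 6 matches, DOF6 4, PEAR2 and DOF2.2 3, PEAR1 2, and TMO6 and OBP2 1. The median over 37049 genes was 4, 97.5% held at least 1, and 23.2% held at least as many as DOF2.1, so that the 7 genes lay within the common range. None of these windows overlapped another gene. The sequences of DOF2.1, the member whose cap and bundle libraries overlapped, and of TMO6, the most abundant member, are shown 5′ to 3′ on the gene's strand from TAIR10.1, with the matches in capitals.
DOF2.1 (chr2:12200781-12201030, reverse strand): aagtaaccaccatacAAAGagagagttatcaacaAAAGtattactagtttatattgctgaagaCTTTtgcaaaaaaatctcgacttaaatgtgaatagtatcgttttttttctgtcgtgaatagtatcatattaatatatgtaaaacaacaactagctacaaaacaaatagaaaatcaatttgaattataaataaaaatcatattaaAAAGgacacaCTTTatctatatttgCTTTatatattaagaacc
TMO6 (chr5:24240560-24240809, forward strand): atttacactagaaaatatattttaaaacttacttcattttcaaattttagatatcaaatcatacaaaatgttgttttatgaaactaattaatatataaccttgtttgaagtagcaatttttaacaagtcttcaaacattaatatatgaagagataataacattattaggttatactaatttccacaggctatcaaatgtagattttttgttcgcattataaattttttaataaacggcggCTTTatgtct
A match marks only that these letters occur, and binding was not measured in these libraries.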

How the data were processed

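RNA-seq libraries from laser-captured phloem cap, pith and remaining vascular bundle of Col-0 inflorescence stems (2 per tissue) were analysed from raw counts per gene deposited by the authors. The authors amplified the RNA over 2 rounds, mapped untrimmed single-end reads of 50 bases to TAIR10 with STAR 2.5.0a, and used only reads that aligned uniquely. In R 3.5.0, summarizeOverlaps assigned them to Araport11 genes without regard to strand. Total counts were 19324189 to 22571632 per library, and 0 count columns were left unused.

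Counts were tested in edgeR 4.0.16 (R 4.3.3) with TMM normalization, after filterByExpr, by glmQLFit (robust) and glmQLFTest on the 4 libraries of each comparison, with Benjamini-Hochberg adjustment over all genes tested. Genes with adjusted p below 0.01 and more than 2-fold difference were called, the thresholds of the study, which used the DESeq2 Wald test (DESeq2 1.42.0 as an alternative here). The SE was derived from the F statistic and therefore carries the same information as p. CPM used TMM library sizes, and TPM the gene length with introns. An exact permutation test of 2 libraries against 2 cannot go below p = 0.333, so single levels were not tested. Ratios on few counts carry exact 95% counting intervals.

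The members and lists were chosen with earlier results of these data known. The genes named were the 8 members, other DOF genes that were called or among the 3 most abundant, up to 3 called and 3 most abundant genes of each other list, and the 5 genes (mean CPM of at least 1) closest to the members' mean standardized log2(CPM + 1) profile. PHV, CDF2, SMXL4, APL, CALS7, MOL1 and AHK3 were named beyond this rule after their values were seen. Sequences came from the RefSeq genome TAIR10.1 with Python 3.11.15, in which all 37051 identifiers were found. The finger and upstream sequences of 1 member are not reported here.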

Additional observations from a re-analysis of the deposited data

How the results depend on the processing

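The 8 genes were refitted in each comparison under 8 settings besides the main one (the DESeq2 Wald test, DESeq2 size factors, library totals, no count filter, CPM of at least 1 in 2 libraries, 1 fit over 6 libraries, glmTreat, and an adjusted p below 0.05) and after removal of each library. No log2 fold change of the 8 genes reversed. Without leaving out a library they ranged from 0.27 to 1.90 for cap against bundle, from -6.36 to -3.34 for pith against bundle and from 5.04 to 8.20 for cap against pith. The number of the 8 genes called in cap against bundle was 0 under all settings except the DESeq2 Wald test, which called 3, and 0 to 3 with a library left out. In pith against bundle 6 to 8 were called under the other settings and 4 to 8 with a library left out. Over those other settings, the share of all genes called lower in the pith ran from 6.86% (glmTreat) to 18.0% (adjusted p below 0.05). In cap against pith 7 were called without a count filter, where OBP2 had an edgeR adjusted p of 0.0118, and 8 under every other setting. Of all genes, 9.88% were called higher without a count filter and 5.9% to 16.5% under the other settings. The cause of these differences was not tested. Over all genes, the DESeq2 Wald test called 1364 in cap against bundle, where edgeR called 0. With a library left out, edgeR called 675 there without S32, 1943 without S33, 1 without S30 and 3 without S31. In pith against bundle the edgeR calls were 2870 in all, 1640 with glmTreat and 5065 at an adjusted p below 0.05. In cap against pith they were 2307, 1496 and 4780. With exonic lengths in place of gene lengths the median TPM of the 8 genes in the bundle was 24.3 in place of 29.2. No paired analysis was possible because the labels give the libraries running numbers that are not shared between tissues. With 2 libraries a tissue and only 2 to 16 counts over both pith libraries for PEAR2, DOF6, HCA2 and OBP2, the size of their differences from the pith is poorly determined, while their direction held in all fits.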
